A study of Rattus norvegicus with 6 samples.

Results

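The untreated spinal cord of the Lewis rat was described from 1 of the 6 single-colour Agilent whole rat genome arrays of the series. The array carried amplified RNA pooled from the spinal cord sections of 3 healthy adult rats, which had received neither T cells nor IgG. A target is a transcript as the array design lists it. It was taken from its brightest probe, and it is called detected where the scanner software marked its spot as well above background. Of the 36410 targets, 36309 had a usable spot on this array and 15977 were detected, which is 44.0%. Over named genes, 8374 of 15964 had a detected target, which is 52.5%. These detected targets were ranked by their processed signal, in arbitrary units, with rank 1 as the brightest.

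A pair of further arrays without T cells served only to see which ranks repeat. The control IgG only array carried RNA of 5 Lewis rats that had been given human control IgG, and the NMO-IgG only array carried RNA of 5 Lewis rats that had been given IgG of a patient with neuromyelitis optica. NMO-IgG binds aquaporin 4, the water channel of astrocytes. These rats were killed 24 hours after the antibody, and 25 sections per rat were used. The rats were 7 to 8 weeks old when obtained. All sections were formaldehyde-fixed and paraffin-embedded, they covered the whole length of the cord, and the RNA went through a round of amplification. Each condition was 1 pool on 1 array, so no value below has an error between animals and no difference was tested. Precision is limited by how few arrays there are. The untreated and NMO-IgG arrays shared slide 2 and the control IgG array lay on slide 1, so slide and treatment cannot be told apart for the latter.

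The spinal cord holds neurons of the dorsal horn, motor neurons of the ventral horn, and the long axon tracts of the white matter. Oligodendrocytes wrap these axons in myelin, astrocytes take up glutamate and contact blood vessels, and microglia are the resident macrophages. Endothelial cells and pericytes form the vessels, ependymal cells line the central canal, and the healthy cord holds few lymphocytes or neutrophils. In RNA from whole sections, fewer cells of a type and less RNA per cell cannot be told apart. A rank is an order of probe signals. Probes differ in how they bind, so a rank is not an order of transcript amounts.

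Signals are given below in the order untreated, control IgG only and NMO-IgG only, and they were not scaled between arrays. The 75th percentile of the probe signals was 46.7, 27.8 and 37.1 on these arrays, and the targets detected numbered 15977, 13571 and 15404. No spot was saturated. The lowest signal well above background was 9.79, 6.02 and 8.52.

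A small share of the targets held most of the signal of the untreated array. The 100 brightest held 37.6% of the signal summed over all detected targets, and the 1000 brightest held 74.4%. The signal was 170226 at rank 1, 11602 at rank 100, 977 at rank 1000 and 45.03 at rank 10000. The median over detected targets was 67.4. Among the 100 brightest, 42 were RefSeq known transcripts, 11 were RefSeq predicted transcripts, 11 were Ensembl transcripts, 22 were GenBank entries, 4 were gene index clusters and 10 carried only a probe name.

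**Figure D1:**
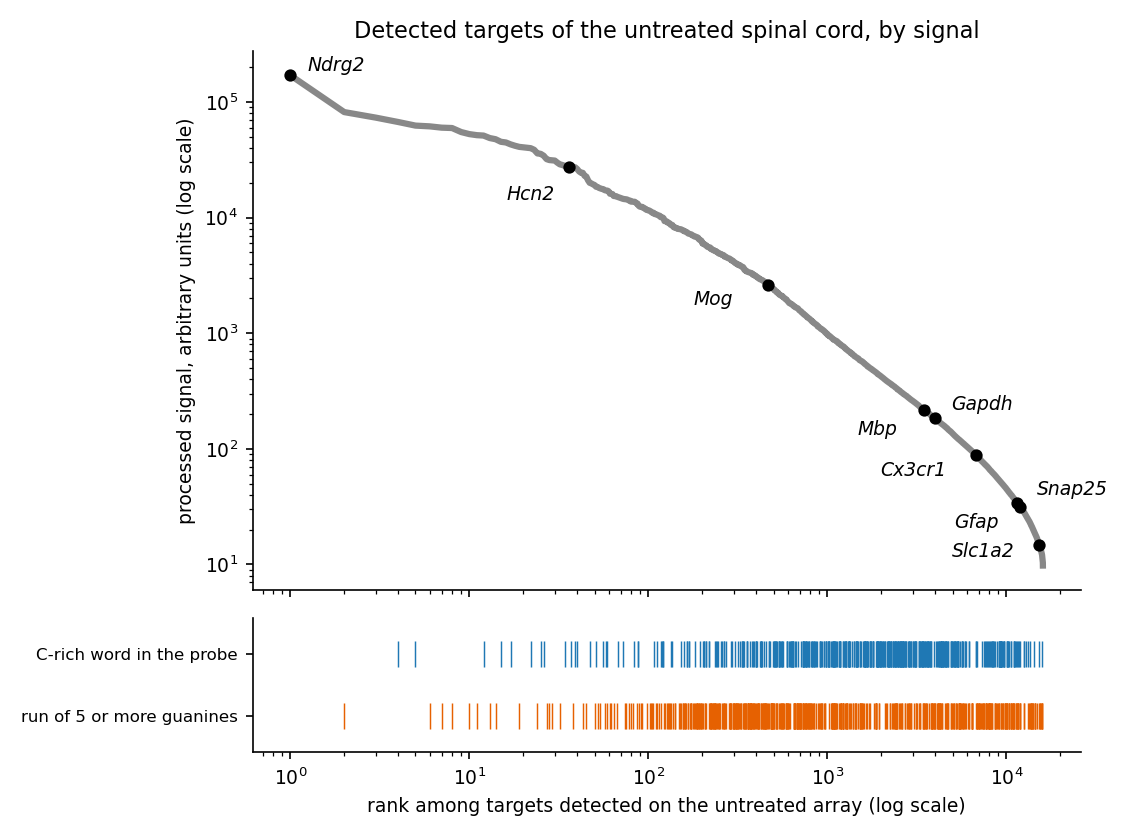
Processed signal of the 15977 detected targets of the untreated array against their rank, both on log scales, with 9 genes of the neural, glial and reference lists marked. The lower strip marks the ranks of targets whose probe holds the C-rich word TCTCCC or a run of at least 5 guanines, and such targets made up 57 of the 100 brightest.

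The brightest named gene was Ndrg2, a member of the N-myc downstream-regulated family that is known as an astrocyte gene. Its signals were 170226, 47923 and 54027, at ranks 1, 12 and 3. Atf5, a leucine zipper transcription factor, followed at 81758, 78369 and 36262, at ranks 2, 6 and 7. Kif1c, a kinesin motor, had 73232, 22844 and 22954, at ranks 3, 21 and 13. These genes stayed among the 21 brightest targets of each of the 3 arrays. Vat1, a vesicle amine transport protein, had 67124, 29403 and 12330, at ranks 4, 16 and 27. Pcbp4, which binds poly(C) stretches of RNA, had 59526, 25397 and 5312, at ranks 8, 18 and 74.

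Neuronal genes among the 20 brightest named genes were Hpca, the calcium sensor hippocalcin, at ranks 22, 24 and 20, and Apbb1, an adaptor of the amyloid precursor protein, at ranks 23, 22 and 34. Hcn2, a channel of the pacemaker current, stood at ranks 36, 13 and 19. Slc32a1, the vesicular transporter of GABA and glycine, had 35894 (rank 24) on the untreated array and 8625 (rank 40) on the NMO-IgG array. It had no usable spot on the control IgG array, and its probe held a run of at least 5 guanines. Hapln2, a link protein of the matrix at nodes of Ranvier, stood at ranks 31, 37 and 54. Mt3, the metallothionein of the brain, stood at ranks 35, 42 and 333. Egfl7, a protein secreted by endothelial cells, stood at ranks 32, 103 and 153.

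The others of these 20 genes were of general or non-neural use. Rpl13a, a protein of the large ribosomal subunit, stood at ranks 21, 20 and 24. Smo, the signal transducer of the Hedgehog pathway, stood at ranks 37, 43 and 36. Cst8, a cystatin known from the epididymis, had 45253, 24206 and 20986, at ranks 15, 19 and 15. Fam124a stood at ranks 26, 30 and 41. Spindoc, Pim1, Shisa4 and Furin stood at ranks 19, 28, 30 and 38 on the untreated array and are described with the ranks that did not repeat.

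The 10 named genes whose worst rank over the 3 arrays was best were Atf5, Ndrg2, Cst8, Kif1c, Hpca, Rpl13a, Vat1, Apbb1, Hcn2 and Tmem50a. Of these, Atf5 never fell below rank 7 and Tmem50a never below rank 40. The probe of Atf5 held a run of at least 5 guanines. Those of Cst8, Hpca, Vat1 and Tmem50a held TCTCCC, and the others held neither. Only Tmem50a of the 10 lay outside the 20 brightest named genes of the untreated array. Its signals were 26318, 11685 and 11991.

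Another probe of the same gene often gave a different picture. Of the 20 brightest named genes, Spindoc, Fam124a, Shisa4, Hapln2 and Hcn2 had a further probe or target, and in each the brighter one was used here. The further probe of Spindoc had 129 on the untreated array against 40894, that of Fam124a 407 against 34298, and that of Hapln2 78.6 against 29882. For Shisa4 the further target had 44.5 against 31129. For Hcn2 it had 6.63, not well above background, against 27569. The rule that takes the brightest probe widens such gaps. Over all 877 targets with 2 or more detected probes, the median range between probes of a target was 1.90 (log2), or 3.73-fold, and it was over 3 (log2) for 27.1% of them. Of the 3830 targets with 2 or more usable probes, 711 had all probes detected, 1816 had some and 1303 had none.

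The scanner software itself moved the order at the top. It subtracts background and scales for trends over the slide, and among the 100 brightest untreated targets the processed signal ran from 0.651 to 2.0 times the mean signal before correction. The factor was near its highest for Ndrg2, whose mean signal before correction was 85159. On the uncorrected signal Ndrg2 ranked 3, Atf5 1, Kif1c 13, Cst8 5 and Pcbp4 20. Of the 100 brightest targets, 82 were the same with and without the correction.

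Spots of the same probe set the precision within the array. Over 107 detected probes with repeat spots, the pooled SD between spots was 0.530 (log2), and the SD of a difference between spots was 0.750 (log2), or 1.68-fold. Within 1 SD of such a difference from rank 10 lay ranks 2 to 28. From rank 100 they were ranks 49 to 180, and from rank 1000 they were ranks 683 to 1527. This window is not a limit, and targets outside it may also be out of order.

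The letters of the probe went with its signal. All probes are 60 bases long. Over the 6-letter words that at least 50 probes hold, those with the highest median signal on the untreated array were runs of guanines and C-rich words. GGGGGG came first and CTCCCC in place 4 of 4065 words. The words were chosen after their values were seen, so no test is given. The probes of 5 named genes with the word GATCTCCC are shown first, since they repeated on all arrays. The lines give up to 30 bases of the probe as the deposited array table lists it, 5′ to 3′, with the word in capitals.
Vat1: gagatcaaaaaGATCTCCCccaaaggagta
Cst8: attgatgttcaGATCTCCCgcagcaattgc
Hpca: ggcatggtaaaaagaaGATCTCCCaggatt
Fam124a: gggttcaccctGATCTCCCactgttccgag
Smo: gttgaggcagaGATCTCCCcagagttagag

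Outside the word these sequences differ. The word GATCTCCC stood in 18 probes with a usable spot on the untreated array, all 18 of them detected, with signals from 5937 to 67124 and a median of 23336. The median of all other probes was 8.98. On the control IgG array 17 such probes were usable, 17 were detected and their median was 8166, and on the NMO-IgG array 19 were usable, 19 were detected and their median was 8372. Of the probes used for the 100 brightest targets, 16, 12 and 17 held the word on the 3 arrays. Besides the 5 genes above, they included Iqgap3, Hk3, Pthlh and Nek2, at ranks 39, 47, 56 and 72 on the untreated array. The same word on the opposite strand, GGGAGATC, stood in 32 probes, of which 18 were detected, with a median of 13.7. The shorter word TCTCCC stood in 467 probes with a median of 437, and 96.4% of these were detected. Its reverse complement GGGAGA stood in 678 probes with a median of 9.11, and 40.7% of these were detected, against 41.5% of the probes without it.

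Runs of guanines marked the other set. The probe of Atf5, which is not shown, also held such a run, and this gene stayed at ranks 2, 6 and 7. The run is in capitals in the probes of these 6 genes, which are shown because most of them fell far in rank on the other arrays.
Pcbp4: gggtgtggcctGGGGGGcaggggcccagtt
Spindoc: caatgtggaGGGGGGaggtgtgacattact
Pim1: ggaaaaacatttGGGGGGtgggattaaaaa
Egfl7: catggggaGGGGGGtcttgtgtggctctta
Furin: ctccaggaaaGGGGGtcatggtgggagggg
Bak1: tGGGGGGtgtttttctctgtcttgcacaac

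On the untreated array 113 probes held GGGGGG, all 113 detected, with a median signal of 5001. On the control IgG and NMO-IgG arrays the medians were 159 and 78.6, with 113 of 113 and 107 of 117 probes detected. A run of at least 5 guanines stood in 587 probes with a median of 787 on the untreated array, where 94.4% were detected. It stood in 666 and 671 usable probes with medians of 40.1 and 29.3 on the other arrays, where 73.9% and 67.5% were detected. The opposite strand did not show this difference between arrays: CCCCCC had medians of 357, 359 and 330. The C-rich word TCTCCC had 437, 209 and 304. Where a target had probes with and without TCTCCC, the probe with the word was brighter in 71 of 81 targets on the untreated array, in 74 of 83 on the control IgG array and in 75 of 82 on the NMO-IgG array. For GGGGG it was brighter in 101 of 116 targets, with a median difference of 4.74 (log2), on the untreated array. On the other arrays it was brighter in 97 of 135 and 86 of 135, with median differences of 1.504 and 1.206 (log2). What lies behind these relations was not tested.

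Of the 100 brightest targets of the untreated array, 21 had a probe with TCTCCC, 35 had one with GGGGG, 1 had both and 43 had neither, while 97.2% of all probes held neither. On the control IgG and NMO-IgG arrays 37 and 43 of the 100 brightest held either. Targets with a guanine run carried 27.0% of the summed detected signal of the untreated array and targets with the C-rich word carried 15.4%.

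**Figure D2:**
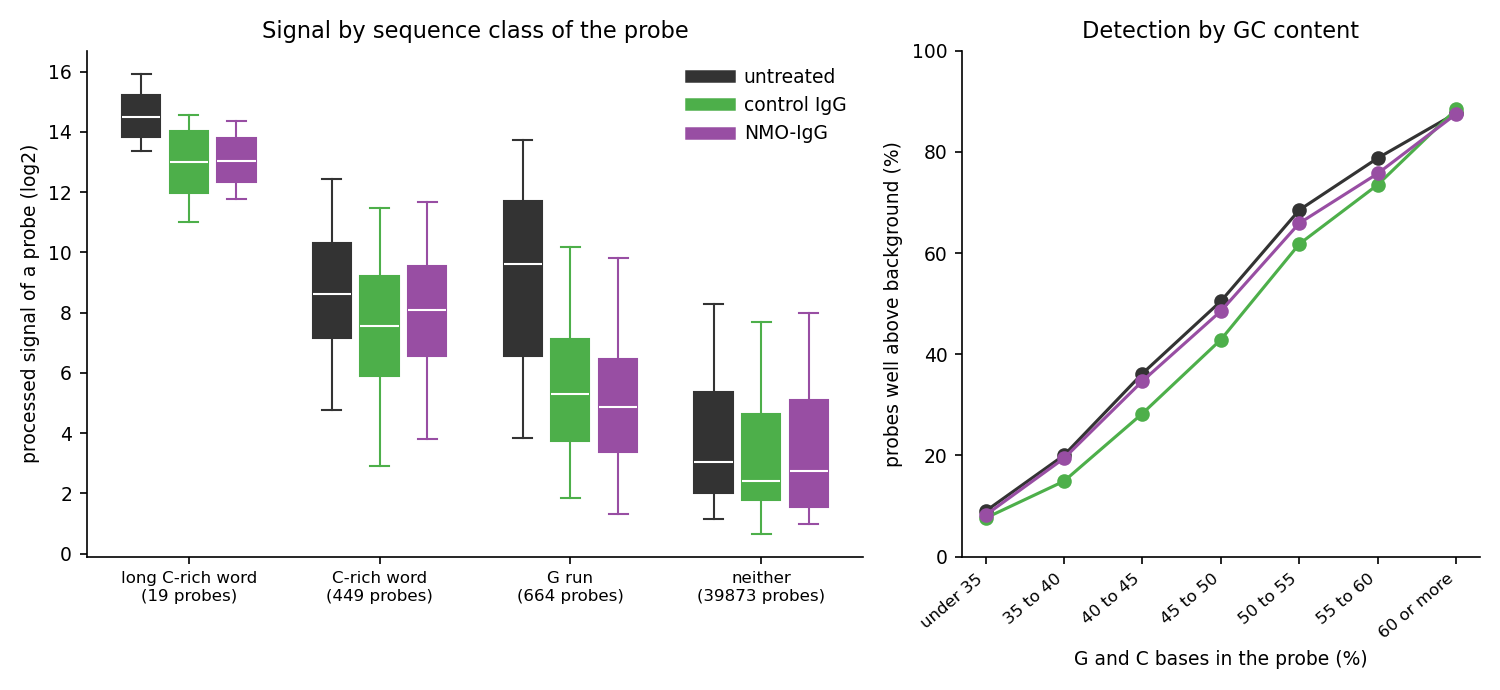
Left, processed signal of probes (log2) by sequence class on each array, where boxes span the quartiles, white lines are medians and whiskers reach the 5th and 95th percentiles. Right, share of probes well above background by their content of G and C bases. Guanine-run probes stand above the others most on the untreated array (median 787 against 40.1 and 29.3), and detection climbs with GC content on each array, from 8.99% to 87.7% on the untreated array.

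The content of G and C bases went with detection too. On the untreated array, 8.99% of probes with under 35% G and C were detected, 36.2% of those from 40 to 45%, 50.5% of those from 45 to 50% and 87.7% of those with 60% or more. The median signal was 3.72 in the first of these bands and 125 in the last. Spearman's rho between GC content and signal was 0.499 over 40884 probes on the untreated array, 0.510 on the control IgG array and 0.485 on the NMO-IgG array. This is a description over probes of the same arrays and carries no p. The word classes were slightly richer in GC, since the median was 45% for probes with the C-rich word and for probes with a guanine run, and 43.3% for the rest.

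Of the 100 brightest targets of the untreated array, 55 were among the 100 brightest of the control IgG array, 59 among those of the NMO-IgG array and 50 on all 3 arrays. The control IgG and NMO-IgG arrays shared 73 with each other. At the 20 brightest, 7 targets were shared by all 3 arrays. Over the targets detected on the untreated array, Spearman's rho of the signals was 0.839 with the control IgG array (15958 targets) and 0.847 with the NMO-IgG array (15954 targets), and it was 0.864 between those arrays (15937 targets). Over all targets with a usable spot, detected or not, rho was 0.920 for the untreated and NMO-IgG arrays, which shared a slide, and 0.868 and 0.852 for the pairs on different slides. The part of the slide in this was not tested. Of the 15977 detected targets, 78.7% were also detected on the control IgG array, 87.6% on the NMO-IgG array and 73.2% on both. Dim targets repeated least. Of the 1597 brightest, 95.7% and 93.8% were detected again on the control IgG and NMO-IgG arrays, and of the 1598 dimmest 41.2% and 46.5%.

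The ranks that did not repeat were mostly those of guanine-run probes. Of the 35 such targets among the 100 brightest, 6 were among the 100 brightest of the control IgG array and 6 among those of the NMO-IgG array, with median ranks of 445 and 525. Of the 21 with the C-rich word, 17 and 20 were, with median ranks of 44.5 and 32. Of the 43 with neither, 32 and 33 were, with median ranks of 52 and 48. The lowest ranks reached were among those with neither, at 7985 and 12269, against 4700 and 9966 for guanine-run targets. All of the 100 that had a usable spot on the other arrays were detected there.

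**Figure D3:**
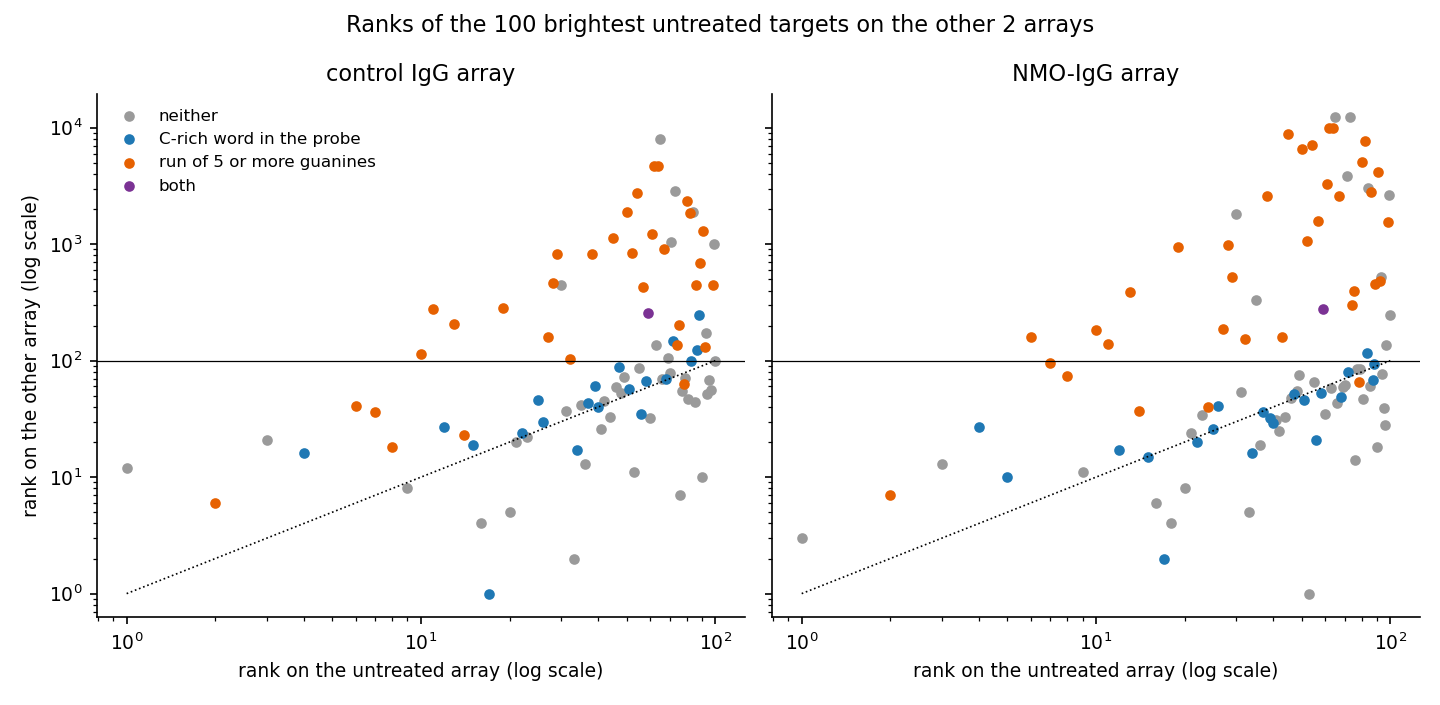
Rank of the 100 brightest untreated targets on the control IgG (left) and NMO-IgG (right) arrays, on log scales, coloured by what the probe holds. Points above the solid line lie outside the 100 brightest of that array, and the dotted line marks equal ranks. Of the 35 guanine-run targets, 6 lie within the 100 brightest of either array.

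The named genes among the 100 brightest that fell furthest included Kazald1, at 13740.3, 259 and 56.7, or ranks 82, 1863 and 7705. Bak1, a pro-apoptotic member of the BCL2 family, had 19148, 256 and 71.9, or ranks 50, 1891 and 6618. Dnm2, a dynamin GTPase of endocytosis, had ranks 80, 2334 and 5053, and Samd11 had ranks 86, 449 and 2825. Furin, a proprotein convertase, had 27364, 602 and 223, or ranks 38, 831 and 2596. Pim1, a serine/threonine kinase, had ranks 28, 464 and 974, and Spindoc had ranks 19, 282 and 948. These 7 genes had guanine-run probes. The other 3 of the 10 had neither word: Gpc2, a glypican, at ranks 71, 1040 and 3843, Tamalin, a scaffold of glutamate receptors, at ranks 99, 1001 and 2654, and Shisa4, a transmembrane protein, at ranks 30, 444 and 1806. In all 10 the untreated signal was the highest of the 3. The choice favours this, since it took genes bright on the untreated array and low in rank on another. The other probe of Kazald1, without a run, had 38.0, 10.15 and 22.9.

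The brightest genes whose probes held neither word were chosen after the values were seen. After Ndrg2, Kif1c, Rpl13a, Apbb1, Shisa4, Hapln2, Mt3 and Hcn2 they were Slc22a17, a receptor of lipocalin 2, at ranks 41, 26 and 31, Resp18, a neuroendocrine secretory protein, at ranks 42, 45 and 25, Gstp1, a glutathione transferase, at ranks 44, 33 and 33, and Abca2, a lipid transporter of oligodendrocytes, at ranks 46, 59 and 48. Fau, Rpl37a and Rpl35, which encode ribosomal proteins, and Ndufs7 and Atp5me of oxidative phosphorylation were within ranks 55 to 85 on the untreated array. Further probes of these genes were dimmer. Gstp1 had 108 beside 23006, Fau had 222 beside 17690, and Rpl37a had 2628, 1171 and 42.0 beside 13745.

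The gene lists were read against the background. Of their 592 genes with a usable spot, 372 were detected, or 62.8%, against 52.5% of all named genes. Genes with AT-rich probes were detected less often in the lists too. Among list genes whose probe held under 40% G and C, 49 of 110 were detected (44.5%), against 27.4% of all such named genes. From 40 to 50% it was 178 of 293 (60.8%) against 50.5%, and above that 145 of 189 (76.7%) against 77.1%. The median signal was 33.7 over list genes and 18.2 over all named genes. On all 3 arrays, 39.7% of named genes had a target detected.

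**Figure D4:**
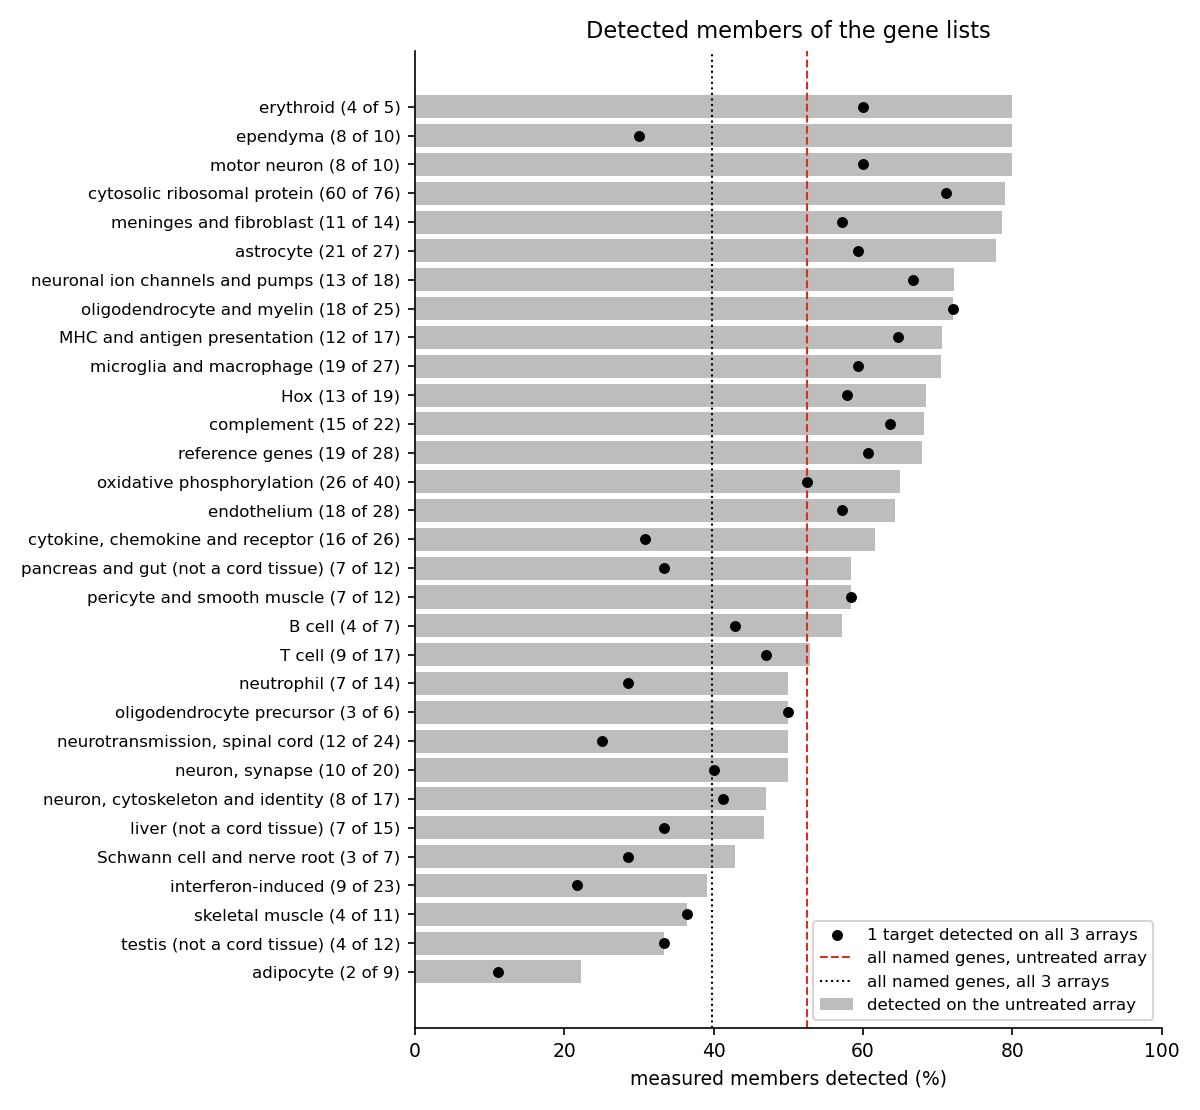
Share of measured members of each gene list with at least 1 target detected on the untreated array (bars, with counts) and that had a target detected on all 3 arrays (points). The dashed line marks 52.5% and the dotted line 39.7%, the shares over all named genes. Ribosomal proteins, myelin, astrocyte and motor neuron genes lie above the dashed line, and 3 of the neuron lists lie below it.

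Neuronal genes were detected about as often as any named gene. Over the 5 neuron lists, 51 of 89 genes were detected (57.3%), with a median signal of 21.4. Of 17 genes of the cytoskeleton and neuronal identity, 8 were detected (47.1%). Prph, the peripherin of motor and sensory neurons, was the brightest at 7818, 8706 and 5907, or ranks 154, 58 and 63. Gap43, a growth cone protein, had 406, 159.9 and 281, and Tubb3, the neuronal beta tubulin, had 195, 164 and 355. The defining genes were mostly not well above background. Nefl, the light neurofilament, had 18.3, 113 and 7.47 and was detected only on the control IgG array. Eno2, Stmn2 and Rbfox3 had 7.33, 6.27 and 5.96 on the untreated array and were detected on none of the 3. Nefm had no usable spot on the untreated array.

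Of 20 synaptic genes, 10 were detected. Syn1, a synapsin of the vesicle surface, had 759.5, 1717 and 995, at ranks 1233, 301 and 476. Nrgn, a postsynaptic calmodulin binder, had 236, 77.9 and 546, and Sv2a, a vesicle glycoprotein, had 161, 492 and 157. Snap25, a SNARE protein of vesicle fusion, had 31.2, 9.20 and 24.2 and was not detected on the control IgG array. Syt1, the calcium sensor of release, had 4.64, 3.46 and 5.04 and was detected on none.

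For neurotransmission, 12 of 24 genes were detected, and 6 had a target detected on all 3 arrays. Slc32a1 was the brightest, with the guanine-run probe described above. Grin1, the obligatory NMDA receptor subunit, had 3892, 2566 and 1062, at ranks 319, 202 and 441. Calb2, the calretinin of interneurons, had 345, 369 and 278. Slc17a6, the vesicular glutamate transporter of dorsal horn neurons, had 21.4, 10.18 and 22.4. The GABA-synthesizing enzymes Gad1 and Gad2 had 5.79 and 3.40 on the untreated array and were not detected there, while Gad2 had 84.5 and was detected on the NMO-IgG array.

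Of 10 motor neuron genes, 8 were detected (80.0%), and 5 when every target of a gene had to be detected. Calca, the gene of calcitonin and CGRP, had 2987, 1084 and 1774, at ranks 414, 473 and 227. Ache, acetylcholinesterase, had 1823, 686 and 867. Of the targets of Calca 1 of 2 was detected on the untreated array, and of those of Ache 1 of 3. Slc18a3, which loads acetylcholine into vesicles, had 336, 188 and 148, and Chat, which makes it, had 74.1, 29.5 and 44.1. Ache, Slc18a3 and Chat had a target detected on all 3 arrays, while Slc5a7, the choline transporter, had 15.5, 2.75 and 9.19 and was detected only on the untreated array. Isl1, the motor neuron transcription factor, had 3.73, 3.65 and 6.01 and was detected on none. Among 18 ion channels and pumps, 13 were detected (72.2%). Hcn2, described above, was the brightest of them.

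Myelin genes were mostly detected. Of 25 oligodendrocyte genes, 18 were detected (72.0%), and these 18 had a target detected on all 3 arrays. Sox10, the lineage transcription factor, had 6384, 3832 and 2360.3, with a C-rich word in its probe. Mog, the myelin oligodendrocyte glycoprotein, had 2631, 477 and 326, at ranks 468, 1038 and 1790. Mobp had 370.5, 257 and 387, and Mbp, myelin basic protein, had 218, 315 and 216, at ranks 3462, 1562 and 2688. Mag and Cnp, of the inner myelin, had 13.0 and 10.05 on the untreated array and were detected only on the control IgG array. Qdpr had 1651, 703 and 252.

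Of 6 oligodendrocyte precursor genes, 3 were detected. Cspg4, the NG2 proteoglycan, had 3389, 74.1 and 50.1 with a guanine-run probe, at ranks 359, 5357 and 8280. Pdgfra had 2.31, 1.32 and 2.16 and was detected on none. Bcan, a brevican of the perineuronal matrix, had 43.2, 89.9 and 124, and Sox6 had 27.9, 20.3 and 33.8.

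Of 27 astrocyte genes, 21 were detected (77.8%), and 16 had a target detected on all 3 arrays. After Ndrg2 the brightest were Atp1b2, a sodium pump subunit, at 4731, 609 and 715, and Gjb6, the connexin 30 of astrocyte gap junctions, at 4028, 1003 and 1204. Aldoc, the brain aldolase, had 149, 60.7 and 119.9. Of the 6 defining genes, 3 were detected on the untreated array, namely Aldoc, Gfap and Slc1a2. Gfap, the astrocyte intermediate filament, had 34.3, 23.7 and 6.74 for 1 target, detected only on the untreated array, and 4.89 for its other target, not detected there. Slc1a2, the main glutamate transporter, had 14.7, 4.05 and 10.11. Aqp4, the antigen of NMO-IgG, had 4 probes with 2.47 to 8.78 on the untreated array, none of them detected, and its brightest probe there held 35% G and C. Slc1a3 and S100b had 5.49 and 3.70 and were detected on none of the arrays. Detection was thus split among the defining genes of astrocytes. Of the 4 defining genes of liver and testis, 2 were also detected.

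Of 27 microglia and macrophage genes, 19 were detected (70.4%). The brightest were C1qb, a chain of complement C1q, at 4575, 2515 and 2044, Tyrobp, the adaptor of TREM2, at 1951, 973 and 1591, and Laptm5, a lysosomal protein of blood cells, at 1568, 381 and 410.1. The defining genes P2ry12, Csf1r, C1qa and Cx3cr1 had 411, 305, 129 and 87.6 on the untreated array and were detected on all 3. Another target of Csf1r had 266, 177 and 308 and was also detected on all 3. A further Csf1r target had 10.5, 6.30 and 4.86 and was detected on none. Aif1 and Itgam had 4.69 and 2.35 and were detected on none. Of 22 complement genes, 15 were detected (68.2%). After C1qb came C3ar1, the receptor of C3a, at 3812, 129 and 43.5, which fell from rank 329 to 3514 and 8987 with neither word in its probe.

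Vascular genes were detected at shares near or somewhat above the 52.5% of all named genes, most of them at modest signal. Of 28 endothelial genes, 18 were detected (64.3%), and of 12 pericyte and smooth muscle genes, 7 were (58.3%). The list of pancreas and gut, not expected in the cord, also had 58.3%. After Egfl7, Robo4, a receptor that guards vessel integrity, had 747, 552 and 587, and Sox18, an endothelial transcription factor, had 557, 186 and 353. Pecam1, the adhesion molecule of endothelial junctions, had 120.2, 50.8 and 57.5, and Flt1, a VEGF receptor, had 119, 60.3 and 99.8. Cldn5, the tight junction claudin of the blood-brain barrier, had 61.3, 63.6 and 53.6, and Kdr, the main VEGF receptor, had 57.5, 37.4 and 32.4. Slc2a1, the barrier glucose transporter, had 69.9, 19.8 and 8.20 and was not detected on the NMO-IgG array. Notch3, the Notch receptor of mural cells, had 3122, 3247 and 1921 with a C-rich word in its probe. Anpep had 583, 903 and 970.3, and Myl9 had 259.7, 143 and 238. Rgs5 had 22.6, 20.3 and 29.4, and Pdgfrb had 6.01, 3.61 and 4.44 and was detected on none.

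Ependymal genes were detected in 8 of 10 cases (80.0%), but 3 had a target detected on all 3 arrays. Foxj1, the master regulator of motile cilia, had 247, 89.4 and 71.6, Mia had 68.6, 90.8 and 74.2, and the ciliary gene Ccdc153 had 52.3, 28.5 and 52.0. Meningeal and fibroblast genes were detected in 11 of 14 cases (78.6%), led by Col1a1 at 1361, 946 and 1046, Islr at 822, 438 and 723 and Ptgds, the prostaglandin D synthase of the meninges, at 794, 383 and 1095. Of 7 Schwann cell genes, 3 were detected. They included S100a4 at 125, 11.03 and 114 and Ngfr at 31.2, 16.5 and 32.9, while Prx and Pmp22 were detected on none of the arrays.

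**Figure D5:**
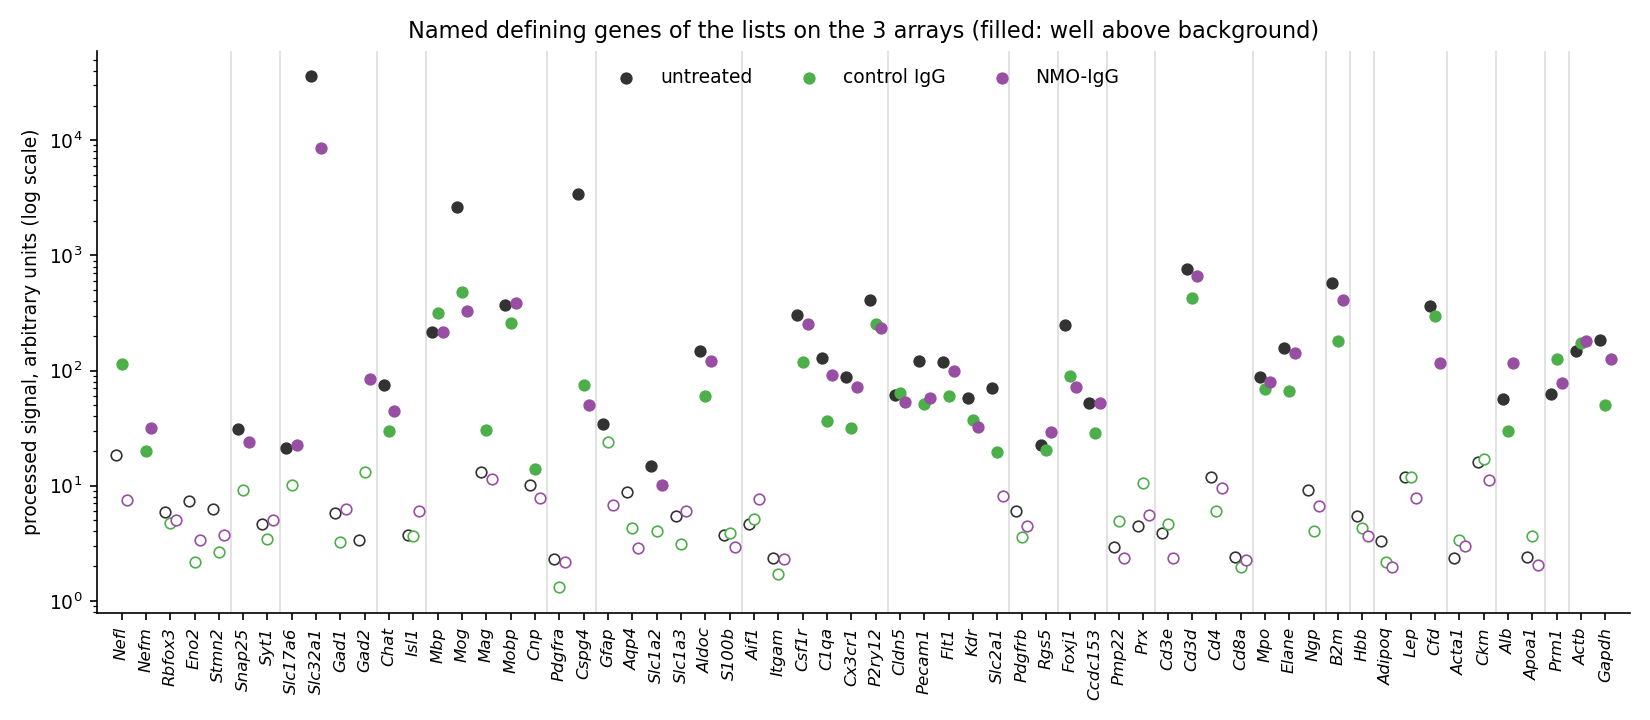
Processed signal (log scale) of the defining genes of the lists that the text names, on the 3 arrays, with filled points where the target was well above background and open points where it was not. Grey lines part the lists. Most myelin, microglial and endothelial markers are filled on all arrays, and Rbfox3, Aqp4, S100b, Aif1 and Cd3e are open on all 3.

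Lymphocyte and neutrophil genes were detected at shares near the background, and their defining genes were split. Of 17 T cell genes, 9 were detected (52.9%). Cd3d, a chain of the T cell receptor complex, had 758, 427 and 660.0, at ranks 1235, 1154 and 790, while Cd3e, Cd4 and Cd8a had 3.85, 11.8 and 2.42 on the untreated array and were detected on none of the arrays. Ctla4, an inhibitory receptor, had 501, 162 and 335, and Cd6 had 295, 121 and 123.4. Of 7 B cell genes, 4 were detected. Ms4a1, the gene of CD20, had 205, 60.7 and 62.9, Cr2 had 37.1, 21.1 and 25.6, and Blnk had 36.9, 26.8 and 37.5. Of 14 neutrophil genes, 7 were detected. The defensin Np4 had 895, 313 and 463 with a C-rich word in its probe. The granule proteases Elane and Prtn3 had 156 and 132 on the untreated array, Mpo, myeloperoxidase, had 88.4, 69.7 and 79.8, and Ngp had 9.15, not detected.

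Of 17 genes of MHC and antigen presentation, 12 were detected (70.6%). B2m, the light chain of class I, had 579.5, 182 and 407 for 1 target and 31.1, 21.5 and 36.2 for the other. RT1-DMa, which loads peptides on class II, had 557, 275 and 420.4, and RT1-CE5, a class I gene whose probe may bind near-identical relatives, had 398, 344 and 283. Of 23 genes induced by interferon, 9 were detected (39.1%), below the 52.5% of all named genes, and 5 had a target detected on all 3 arrays (21.7%). The brightest was Irgm, a GTPase with a guanine-run probe, at 3004, 22.4 and 8.01, or rank 410 on the untreated array and 10779 on the control IgG array, and it was not detected on the NMO-IgG array. Bst2, or tetherin, had 249.8, 88.6 and 110.1, and Oas1a had 179, 69.7 and 132. Mx1, Irf7, Isg15 and Ifit3 had 5.65, 2.77, 9.12 and 2.47 on the untreated array, not detected.

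Of 26 cytokine, chemokine and receptor genes, 16 were detected (61.5%), and 8 had a target detected on all 3 arrays. Cx3cl1, the neuronal chemokine that binds the microglial receptor Cx3cr1, had 7987, 1678 and 1679.5, at ranks 146, 306 and 244. Cxcl12 had 207, 53.8 and 108 with a C-rich word in its probe, and Cxcr4, its receptor, had 137, 29.2 and 222.

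Genes of tissues other than the cord were detected at a share near the 52.5% of all named genes. Over the lists of liver, testis, and pancreas and gut, 18 of 39 genes were detected (46.2%), with a median signal of 14.3. Gast, the gene of the stomach hormone gastrin, had 2029.7, 2472 and 2111, at ranks 571, 211 and 192, and its probe held neither word. Serpina1, a liver protease inhibitor, had 223, 116 and 156, Hp, haptoglobin, had 76.0, 23.6 and 45.01, and Alb, albumin, had 56.8, 29.7 and 115, while Apoa1 was detected on none. Of the testis genes, Insl3 had 169, 125 and 106, Spata3 had 151, 145 and 278, and the protamine Prm1, whose probe held 76.7% G and C, had 62.5, 125 and 77.4. Ins1, an insulin gene, had 81.5, 56.9 and 42.6. Of the cord lists, ependyma (80.0%), astrocyte (77.8%), oligodendrocyte (72.0%) and microglia (70.4%) had more members detected than liver (46.7%) and testis (33.3%). Others lay near or below liver, among them neuronal cytoskeleton and identity (47.1%), oligodendrocyte precursor (3 of 6) and Schwann cell (42.9%). Pancreas and gut had 58.3%, beside 57.3% for the neuronal genes and 52.5% for all named genes. The ependymal lead did not repeat on all 3 arrays. There, 3 of 10 ependymal genes had a target detected, against 33.3% for both liver and testis. Astrocyte and microglia (59.3% each) and oligodendrocyte (72.0%) stayed above these.

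Blood, fat and muscle gave mixed values. Of 5 erythroid genes, 4 were detected, and 2 without the probes that hold either word. They were led by Ahsp, the chaperone of alpha globin, at 279, 79.7 and 167, while the beta globin Hbb had 5.46, 4.28 and 3.64 and was detected on none. Of 9 adipocyte genes, 2 were detected (22.2%). They were Cfd, or adipsin, at 362, 296 and 117, and Plin1 at 20.8, 8.39 and 16.1, and Adipoq and Lep were detected on none. Of 11 skeletal muscle genes, 4 were detected (36.4%). Tnni2, a fast troponin, had 1574, 512 and 1166, and Mb, myoglobin, had 1141, 716 and 1111, while Acta1 and Ckm were detected on none.

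Ribosomal protein genes stood highest of all lists by median. Of 76, 60 were detected (78.9%), 54 had a target detected on all 3 arrays, and 23 were among the 1000 brightest targets, which hold 3.52% of all named genes. Their median was 230, above 88.2% of all named genes. They still spanned 2.47 to 40188: Rpl13a, Rpl37a and Rpl35 were within the 100 brightest, while Rplp0, Rpl3 and Rps24 were not detected. Of 40 genes of oxidative phosphorylation, 26 were detected (65.0%), led by Cox8a at 4582, 2976 and 2045. Of 28 reference genes, 19 were detected (67.9%). Gapdh had 184, 50.3 and 125, Actb had 147, 172 and 180.0, and Ubb, a polyubiquitin, had 3075, 1097 and 953, while Eef1a1, Ppia and Ywhaz were not detected on the untreated array. Of 19 Hox genes, which give the cord its position along the body axis, 13 were detected (68.4%). They were led by Hoxa7 at 475, 171 and 392, Hoxb3 at 407, 228 and 93.0 and Hoxa5 at 407, 287 and 277.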

How the data were processed

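Groups were taken per the labels, with 1 array per condition. The deposited scanner tables hold processed intensity, which the authors' scanner software (Agilent Feature Extraction 10.1.1.1, per the file headers) had background-subtracted and detrended, with dim values replaced by surrogates. The authors named quantile normalization, but the deposited intensity per target equals the processed intensity for all 32374 targets with 1 spot. Genes and lists were chosen with earlier results of these data known.

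From the 43379 non-control spots, 193 marked as outliers on the untreated array were dropped, repeat spots were averaged as log2 values, and each of the 36410 targets was represented by its brightest probe on the untreated array. The same probe was used on the other arrays. A probe with several spots was detected if most spots were. Symbols came from RefSeq (GRCr8) or the files, with 17034 targets matched. The 31 lists hold 626 genes, a gene being detected if any of its targets was. Named are the 20 brightest genes, the 10 whose worst rank was best, the 10 that fell furthest, and the defining and 3 brightest members of each list. Genes added after their values were seen are Iqgap3, Hk3, Pthlh, Nek2, the brightest with neither word, Slc5a7, and undetected examples of the interferon, ribosomal and reference lists. Alternatives were other background corrections, probe rules, detection marks and normalizations. Python 3.11.15, pandas 2.3.3, scipy 1.17.1 and limma 3.58.1 (normexp, offset 50) were used. Some list members are not reported here. Ranks and word searches were tested on simulated data.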

Additional observations from a re-analysis of the deposited data

How the results depend on the processing

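No paired analysis was possible because each condition had 1 array, and no array could be left out for the same reason. Detected targets were 6735 when only targets listed by an NM transcript were kept, and 7988 when only the brighter part of the detected targets counted, which left 218 detected list genes. By construction, overlaps moved with the number compared: with control IgG, NMO-IgG and all 3 arrays they were 29, 29 and 24 of the 50 brightest, 102, 108 and 90 of 200, 278, 268 and 242 of 500, and 634, 607 and 540 of 1000. The other alternatives kept the counts within 1.5 times. The rank correlations with control IgG and with NMO-IgG were 0.761 and 0.822 under normexp, 0.761 and 0.816 without background correction, 0.824 and 0.829 with outlier spots kept, 0.846 and 0.861 with the mean over probes, 0.849 and 0.852 over NM transcripts, 0.849 and 0.864 in the deposited values per target, and 0.868 and 0.920 without a filter on dim targets. Over targets detected on all 3 arrays the latter was 0.841. Without probes that hold TCTCCC or GGGGG, chosen after seeing the data, they were 0.857 and 0.888, and 59, 60 and 49 of the 100 brightest were shared. The cause of these moves was not tested. Of 125 ranks of 21 named genes under other settings, 99 stayed within 1.5 times. Hapln2 fell from rank 31 to 583 under the mean over probes. Of 155 counts over the 31 lists, 122 stayed within 1.5 times. When detection meant a signal positive and significantly above background, 23496 targets and 483 list genes were detected. Of the 31 lists, 22 then stayed within 1.5 times. Neuronal cytoskeleton and identity rose from 8 to 16 of 17, liver from 7 to 11 of 15, and pancreas and gut from 7 to 12 of 12. Genes called undetected above are so by the well-above-background mark. Dim targets limit the rest: 1095 targets were detected on the untreated array only.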

Other observations

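Targets of ribosomal and mitochondrial RNA ranked lower on the untreated array than on the other arrays. The target whose description names an rRNA promoter binding protein had 42980.4, 156443 and 54662 on the untreated, control IgG only and NMO-IgG only arrays, at ranks 17, 1 and 2. An expressed sequence similar to ribosomal RNA had 40564, 88341 and 32906, at ranks 20, 5 and 8. COX2, a mitochondrially encoded subunit of cytochrome c oxidase, had 28546, 142096 and 43993, at ranks 33, 2 and 5. The mitochondrial targets ND2, ATP6, ND5, COX3 and COX1 stood at ranks 2043, 2685, 3204, 2841 and 3964 on the untreated array, at 177, 95, 570, 581 and 312 on the control IgG array and at 418, 71, 1484, 843 and 845 on the NMO-IgG array. CYTB stood at rank 193 on the untreated array and 23 on the NMO-IgG array. Each of these had its lowest place on the untreated array. These targets were chosen by name after the ranks were seen, and no test was made.

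The brightest targets without a gene symbol on the untreated array included 5 of the 20 brightest that carry only a probe name. The gene index cluster TC619294 had 62474 and 25762 on the untreated and NMO-IgG arrays, at ranks 5 and 10, with no usable control IgG spot, and its probe held GATCTCCC. A predicted transcript similar to ribosomal protein L28 stood at ranks 9, 8 and 11 on the untreated, control IgG only and NMO-IgG only arrays, with neither word in its probe. The brightest target of the NMO-IgG array was an expressed sequence from a rat DRG library, at ranks 53, 11 and 1.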
